A study of Mus musculus with 5 samples.

Results

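Of the sirtuins and class I histone deacetylases, 10 genes were taken as members: Sirt1 to Sirt7, Hdac1, Hdac2 and Hdac3. They were found by symbol among the named probes of the arrays, which gave 11 probes for 7 of the 10 genes, out of 14654 named genes. No probe was named for Hdac1, Sirt4 or Sirt7. A value on all 5 arrays, which the tests needed, was available for 6 members, Sirt1, Sirt2, Sirt3, Sirt5, Hdac2 and Hdac3, among 9000 genes tested.

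Mouse spleen RNA was hybridised to 5 2-colour arrays: 3 from Sirt6-/- RelA+/- spleens and 2 from Sirt6-/- spleens, each against RNA of a pooled wild-type spleen sample. Every mutant spleen lacked both copies of Sirt6, and the first group also had a single functional copy of RelA, an NF-kB subunit whose target promoters Sirt6 is known to act on. Mutant RNA carried Cy5 and the pool carried Cy3 on every array, with no dye swap. Each value was taken as the log2 ratio of mutant over pool signal, so that a positive one means more in the mutant, but the sources used here state neither the log base nor the direction. They also do not state age, sex, strain, the kind of knockout allele or the number of animals in the pool. The pool enters only as the other channel, so its own spread between animals is not measured.

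Sirtuins are NAD+-dependent enzymes that remove acetyl and other acyl groups from lysines, and they differ in where they work. Sirt1 and Sirt6 are mainly nuclear, Sirt7 is nucleolar, Sirt2 is mainly cytoplasmic, and Sirt3, Sirt4 and Sirt5 are mitochondrial. The class I histone deacetylases among the members use zinc instead of NAD+ and work inside corepressor complexes: Hdac1 and Hdac2 in Sin3, NuRD and CoREST, and Hdac3 in the NCoR complex. The comparison asks whether these relatives were at another level where Sirt6 was lost.

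None of the 6 members tested passed the adjusted test, either against the pool or between the genotypes. Hdac3 was above the pool on 5 of 5 arrays, as were 11.4% of the genes tested, and averaged 1.60-fold. Sirt5 was lower on each Sirt6-/- RelA+/- array than on both Sirt6-/- arrays. Groups that do not overlap, in either direction, were found for 28.2% of the genes tested. Sirt1 and Hdac2 both had their highest value on Sirt6-/- RelA+/- array 3, and were above the pool on 1 and 3 of the 5 arrays. Sirt2 had group means within 0.20 log2 of the pool in both genotypes. The 2 probes of Sirt3 lay on opposite sides of the pool on every array.

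The promoters of Sirt5, Sirt1 and Hdac2 are shown because these 3 members had the widest spread over the arrays. Each is the 250 bases before the annotated start in RefSeq, build GRCm38.p6, written 5′ to 3′ along the gene. The windows are chr13:43365285-43365534 on the plus strand for Sirt5, chr10:63339036-63339285 on the minus strand for Sirt1 and chr10:36974294-36974543 on the plus strand for Hdac2. Capitals mark the GC box GGGCGG and the CCAAT motif, searched on both strands.
Sirt5: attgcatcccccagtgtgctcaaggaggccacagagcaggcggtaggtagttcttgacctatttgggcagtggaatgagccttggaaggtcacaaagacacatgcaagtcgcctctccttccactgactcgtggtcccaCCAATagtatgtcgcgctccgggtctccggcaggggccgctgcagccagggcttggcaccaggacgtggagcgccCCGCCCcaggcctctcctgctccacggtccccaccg
Sirt1: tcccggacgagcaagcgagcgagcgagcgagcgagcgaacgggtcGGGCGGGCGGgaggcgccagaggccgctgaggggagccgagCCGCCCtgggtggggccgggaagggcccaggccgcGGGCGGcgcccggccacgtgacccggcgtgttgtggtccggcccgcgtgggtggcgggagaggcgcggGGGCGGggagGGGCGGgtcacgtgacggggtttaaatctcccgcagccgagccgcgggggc
Hdac2: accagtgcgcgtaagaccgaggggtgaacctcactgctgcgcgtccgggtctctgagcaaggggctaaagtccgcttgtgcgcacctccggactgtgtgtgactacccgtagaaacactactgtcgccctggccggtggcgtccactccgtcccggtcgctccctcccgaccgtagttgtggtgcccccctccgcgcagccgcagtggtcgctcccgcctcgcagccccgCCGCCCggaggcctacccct
The Sirt1 window held 6 GC boxes, of which the first 2 overlap, and 39 CpG dinucleotides at 79.2% G and C. The Hdac2 window held 1 GC box and 27 CpG dinucleotides at 68.8% G and C. The Sirt5 window held 1 GC box, 1 CCAAT motif and 13 CpG dinucleotides at 62.8% G and C. A GC box is present in 32.7% and a CCAAT motif in 33.9% of the 32851 promoter windows of the same length. The E2F motif TTTNGCGC, which occurs in 1.13% of those windows, was in none of these 3. These matches describe letters in a window and not sites bound by a factor.

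The targeted gene was almost unmeasured. Sirt6, a chromatin deacetylase, had 2 probes, and probe 4451 was blank on all 5 arrays. Probe 9711 had a value on Sirt6-/- RelA+/- array 2 alone, at -4.31, and was blank on the other Sirt6-/- RelA+/- arrays and on both Sirt6-/- arrays. Sirt6 therefore read below the pool on 1 array and could not be checked on the other 4. The sources do not place either probe inside or outside the deletion, so this single value does not by itself show the loss. On array 2, 77 of 22871 spots, or 0.337%, were at or below that value. Blanks were common: 11338 of 38784 spots, or 29.2%, had no value on any array, and 4331, or 11.2%, had a value on 1 array. Of the members' 11 probes, 8 had all 5 values and 2 had none, Sirt6 probe 4451 and Hdac3 probe 2818.

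The arrays differed in how many spots had values and in how far they resembled one another. Values were present for 19768 to 22871 spots per array, and deposited medians lay between -0.039 and 0.004. The Sirt6-/- arrays correlated with each other at r = 0.82 over the 9000 genes, whereas pairs among the Sirt6-/- RelA+/- arrays correlated at between -0.0062 and 0.335. Sirt6-/- RelA+/- array 3 correlated with the Sirt6-/- arrays at -0.16 and -0.02. Transcripts of 3 Y-linked genes were above the pool on all 5 arrays: Uty by 2.44 to 2.96, Kdm5d by 2.07 to 2.34 and Eif2s3y by 1.45 to 2.78. Sex is not stated for the mutants or the pool. In every comparison with the pool, sex, dye and genotype therefore cannot be told apart.

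Sirt1, the nuclear deacetylase of p53, FoxO factors and RelA, read -0.57, -0.43 and 0.89 on the Sirt6-/- RelA+/- arrays, against -0.62 and -0.16 on the Sirt6-/- arrays. A single array, Sirt6-/- RelA+/- array 3, lay above the pool, and the groups overlapped. The means were -0.036 ± 0.81 (SD, n = 3) in Sirt6-/- RelA+/- and -0.39 ± 0.33 (SD, n = 2) in Sirt6-/- spleens. Relative to the pool, the 95% interval of the Sirt6-/- RelA+/- mean was -0.91 to 0.84 and that of the Sirt6-/- mean -1.45 to 0.68. limma put the difference between genotypes at 0.35 ± 0.58 (SE; adjusted p = 0.906).

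Sirt2, a mainly cytoplasmic deacetylase that acts on alpha-tubulin, read -0.60, 0.15 and -0.14 on the Sirt6-/- RelA+/- arrays, against 0.12 and -0.10 on the Sirt6-/- arrays. Values lay on both sides of the pool in both genotypes. Its SD over the 5 arrays was 0.30, and 88.4% of the tested genes varied at least as much. limma estimated -0.20 ± 0.28 for Sirt6-/- RelA+/- (SE; adjusted p = 0.747) and 0.009 ± 0.34 for Sirt6-/- spleens (SE; adjusted p = 0.990).

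Sirt3, the main mitochondrial deacetylase, was read by 2 probes that lay on opposite sides of the pool on all 5 arrays. Probe 21272 read 0.34, 0.33 and 0.33 on the Sirt6-/- RelA+/- arrays, against 0.33 and 0.70 on the Sirt6-/- arrays. Probe 36469 read -1.75, -0.16 and -0.01 on the Sirt6-/- RelA+/- arrays, against -0.73 and -1.03 on the Sirt6-/- arrays. The root mean square gap between the probes was 1.33, and 26.4% of 1900 genes with 2 measured probes had a gap at least that wide. The average of both was -0.15 ± 0.48 (SD, n = 3) in Sirt6-/- RelA+/- and -0.19 ± 0.022 (SD, n = 2) in Sirt6-/- spleens, and its sign depends on which probe is read. With limma over both genotypes, probe 21272 was at 0.42 (adjusted p = 0.218) and probe 36469 at -0.76 (adjusted p = 0.187).

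Sirt5, the mitochondrial enzyme that removes succinyl, malonyl and glutaryl groups, was the member with the widest spread, and its 2 probes gave like values. Probe 740 read -0.28, 0.39 and -1.40 on the Sirt6-/- RelA+/- arrays, against 0.90 and 0.72 on the Sirt6-/- arrays. Probe 7652 read -0.18, 0.31 and -1.03 on the Sirt6-/- RelA+/- arrays, against 0.68 and 0.88 on the Sirt6-/- arrays. Their root mean square gap was 0.22, and both lay on the same side of the pool on every array. Averaged, Sirt5 was -0.37 ± 0.79 (SD, n = 3) in Sirt6-/- RelA+/- and 0.80 ± 0.0092 (SD, n = 2) in Sirt6-/- spleens, with no overlap between the groups. Groups did not overlap for 2536 genes, or 28.2%, so this is common among the genes tested. limma gave a difference of -1.16 ± 0.56 (SE), with an interval of -2.50 to 0.17, an unadjusted p of 0.0783 and an adjusted p of 0.614. Without Sirt6-/- RelA+/- array 3, which held the lowest value, the difference was -0.74. Against the pool, limma gave 0.80 ± 0.43 for Sirt6-/- spleens (SE; adjusted p = 0.335) and -0.37 ± 0.35 for Sirt6-/- RelA+/- spleens (SE; adjusted p = 0.627).

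Hdac2, a catalytic subunit of Sin3, NuRD and CoREST, read 0.52, -0.30 and 0.96 on the Sirt6-/- RelA+/- arrays, against -0.28 and 0.057 on the Sirt6-/- arrays. The groups overlapped, and the highest value was again on Sirt6-/- RelA+/- array 3. The means were 0.39 ± 0.64 (SD, n = 3) in Sirt6-/- RelA+/- and -0.11 ± 0.24 (SD, n = 2) in Sirt6-/- spleens. limma gave a difference of 0.50 ± 0.52 (SE; adjusted p = 0.841). Leaving out 1 array at a time put the Sirt6-/- RelA+/- mean between 0.11 and 0.74 and the difference between 0.22 and 0.85.

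Hdac3, the catalytic subunit of the NCoR complex, read 1.21, 0.22 and 0.62 on the Sirt6-/- RelA+/- arrays, against 0.40 and 0.96 on the Sirt6-/- arrays. Every array was above the pool, as it was for 1025 genes, or 11.4% of those tested, and the groups overlapped. The means were 0.68 ± 0.50 (SD, n = 3) in Sirt6-/- RelA+/- and 0.68 ± 0.40 (SD, n = 2) in Sirt6-/- spleens. Over both genotypes limma put it 0.68 ± 0.24 (SE) above the pool, with an interval of 0.096 to 1.26, an unadjusted p of 0.0286 and an adjusted p of 0.150. The interval corresponds to 1.07-fold to 2.40-fold. It took in 0 without Sirt6-/- array 1 (limma unadjusted p = 0.0773) or without Sirt6-/- array 2 (limma unadjusted p = 0.219). Between the genotypes the estimate was 0.0043 ± 0.49 (SE), with an interval of -1.16 to 1.17. Only probe 4685 was measured, so no second probe bears on these values.

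**Figure D1:**
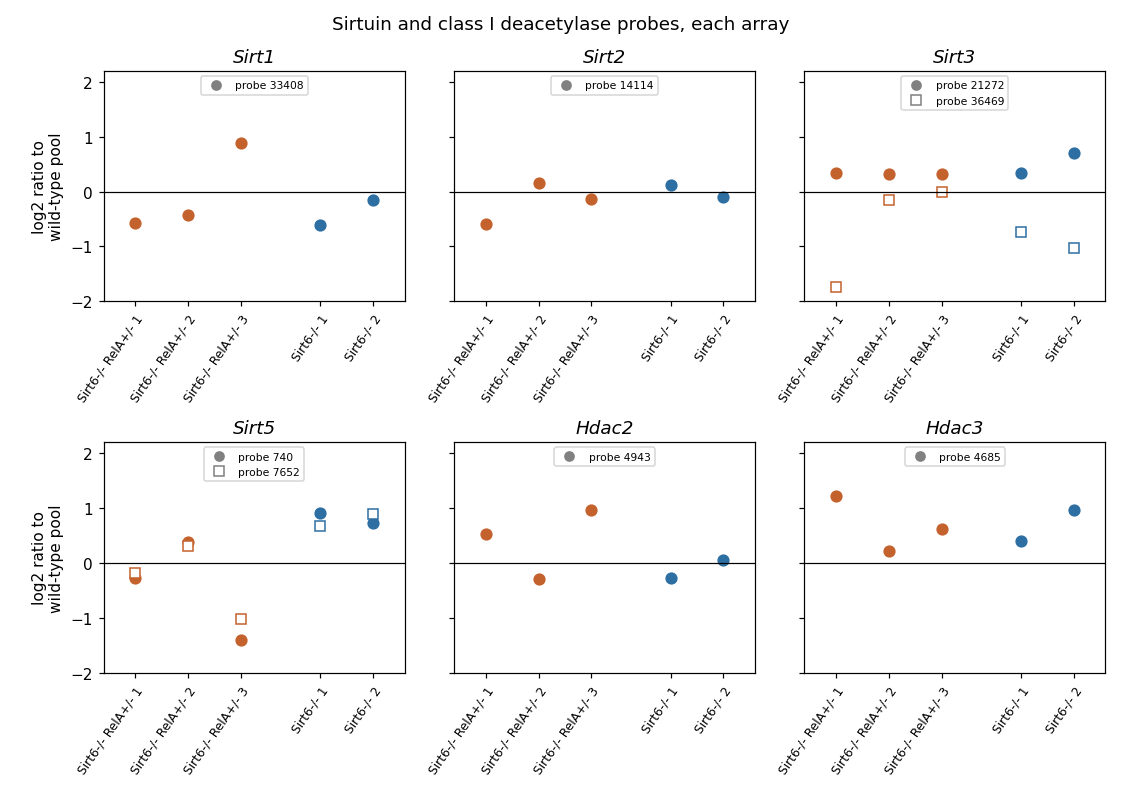
Log2 ratio to the wild-type pool (vertical axis) of each measured probe of the 6 tested members on each array (horizontal axis), with Sirt6-/- RelA+/- arrays in orange and Sirt6-/- arrays in blue. Filled and open symbols are different probes of a gene: those of Sirt5 lie together and those of Sirt3 lie on opposite sides of 0, while Hdac3 is above 0 on all 5 arrays.

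Across the 6 members, limma with Benjamini-Hochberg adjustment at 0.05 called 0 in every comparison. The share of all genes called was 0.322% for Sirt6-/- RelA+/- against the pool, 0% for Sirt6-/- against the pool, 1.01% for both genotypes against the pool and 0% between the genotypes. At an unadjusted p under 0.05 the members numbered 0, 0, 1 and 0 in those comparisons, the 1 being Hdac3, against 13.1%, 20.4%, 26.9% and 8.82% of all genes. With so few genes called over the whole array, no call among 6 members separates them from other genes. Their median absolute log2 value was 0.28 in Sirt6-/- RelA+/- and 0.29 in Sirt6-/- spleens against the pool, where all tested genes had medians of 0.39 and 0.55. Their median SD over the arrays was 0.475, and that of all genes was 0.633.

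**Figure D2:**
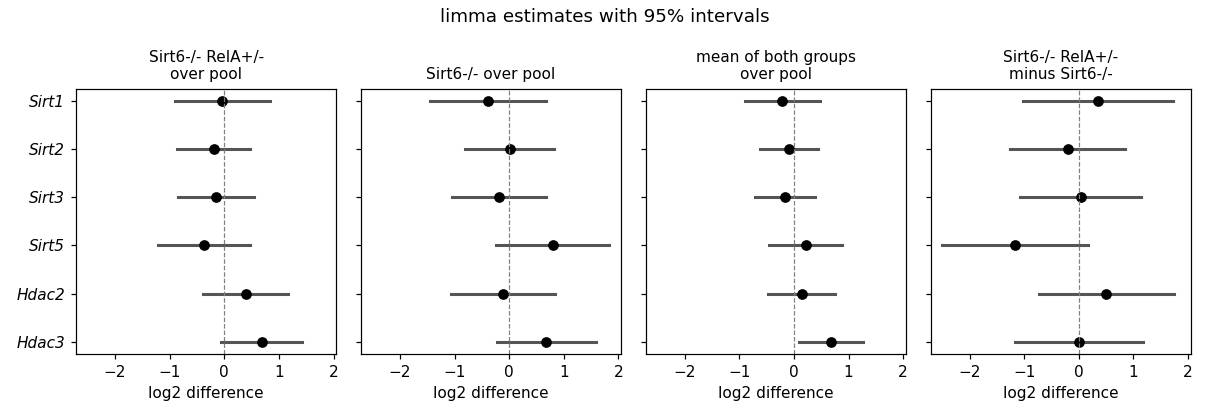
limma estimates (points) and 95% intervals (bars) of the log2 difference (horizontal axis) for the 6 members (rows) in 4 comparisons (panels). The interval of Hdac3 over both genotypes, 0.096 to 1.26, is the only one that leaves out 0, which it no longer did without either Sirt6-/- array, and no member passed adjustment.

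Arrays of Sirt6-/- RelA+/- spleens differed from one another in markers of blood cells. Array 3 of that group also held the highest readings of Sirt1 and Hdac2 and the lowest reading of Sirt5. The median of 18 erythroid genes was -1.06, -0.74 and 1.59 on the Sirt6-/- RelA+/- arrays, against -2.88 and -2.45 on the Sirt6-/- arrays. The median of 26 cell cycle genes was -1.65, -0.45 and 0.84 on the Sirt6-/- RelA+/- arrays, against -1.53 and -1.98 on the Sirt6-/- arrays. Array 3 was the only one above the pool for both lists. Sirt1 and Hdac2 did not rank the other arrays in the order of either list. Hdac2 was lowest, at -0.30, on Sirt6-/- RelA+/- array 2, and Sirt1 was next highest, at -0.16, on Sirt6-/- array 2. All 18 erythroid and 26 cell cycle genes had higher group means in Sirt6-/- RelA+/- than in Sirt6-/- spleens, as did 4636 of the 9000 genes tested. limma called 0 of these erythroid and cell cycle genes there (13 and 4 had an unadjusted p under 0.05, against 8.82% of all genes). The median of 13 neutrophil genes was -0.73, 1.34 and -0.70 on the Sirt6-/- RelA+/- arrays, against 2.06 and 0.88 on the Sirt6-/- arrays. The median of 10 macrophage genes was -0.078, 0.72 and -0.54 on the Sirt6-/- RelA+/- arrays, against 1.40 and 0.89 on the Sirt6-/- arrays. Sirt5, like these myeloid lists, was below the pool on Sirt6-/- RelA+/- arrays 1 and 3 and above it on the other 3. The part of these markers in the members' values was not tested, and in whole spleen fewer cells of a type and less RNA per cell cannot be told apart.

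Markers of other cells also differed between arrays. The median of 12 B cell genes lay between -1.38 and -0.27 on the Sirt6-/- RelA+/- arrays and between -1.46 and -0.92 on the Sirt6-/- arrays. The median of 12 T cell genes lay between -0.75 and 0.88 on the Sirt6-/- RelA+/- arrays and between 0.11 and 0.35 on the Sirt6-/- arrays. The median of 12 stromal genes lay between -1.51 and -1.27 on the Sirt6-/- RelA+/- arrays and between -0.006 and 0.068 on the Sirt6-/- arrays. The median of 7 pancreas genes lay between -1.39 and 1.14 on the Sirt6-/- RelA+/- arrays and between -2.69 and -2.30 on the Sirt6-/- arrays. Of these lists and the macrophage list, limma called 3 stromal genes lower in Sirt6-/- RelA+/- spleens, where 0.322% of all genes were called. Over both genotypes it called 3 stromal and 2 B cell genes lower and 1 macrophage gene higher, against 0.467% of all genes lower and 0.544% higher. With each probe tested on its own, limma called 0 in either comparison. Pax5, Cd8a, Csf1r and Mki67 were among the defining markers without a value on every array.

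**Figure D3:**
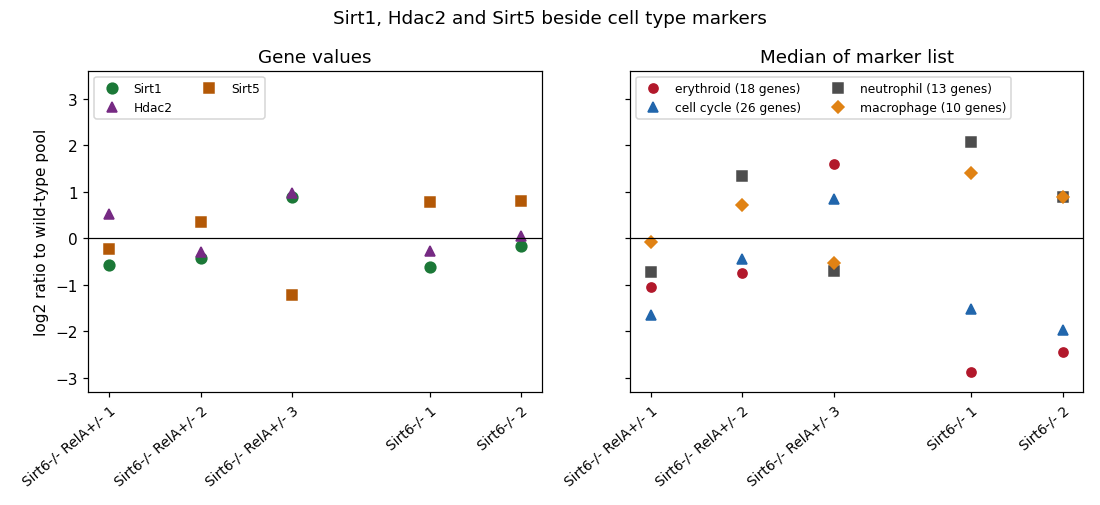
Log2 ratios to the wild-type pool of Sirt1, Hdac2 and Sirt5 (left) and medians of 4 marker lists (right) on each array. Array 3 of the Sirt6-/- RelA+/- group holds the highest Sirt1 and Hdac2 values, the lowest Sirt5 value and the highest erythroid and cell cycle medians.

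The zinc-dependent deacetylases of classes II and IV give a nearby comparison: Hdac4, Hdac5, Hdac6, Hdac7, Hdac10 and Hdac11 were tested, and Hdac9 was not. No probe was named for Hdac8, the class I enzyme that was not among the members. Hdac4, a class IIa enzyme that shuttles between cytoplasm and nucleus, read 0.71, 0.22 and 0.042 on the Sirt6-/- RelA+/- arrays, against 1.37 and 1.30 on the Sirt6-/- arrays. The groups did not overlap, as for 28.2% of the genes tested, and every array was above the pool, as for 11.4%. limma gave 1.34 ± 0.33 for Sirt6-/- spleens against the pool (SE; unadjusted p = 0.00577, adjusted p = 0.116) and 0.83 ± 0.22 over both genotypes (SE; adjusted p = 0.0951). Hdac11, the only class IV member, read -0.15, -0.054 and -0.14 on the Sirt6-/- RelA+/- arrays, against 0.77 and 0.46 on the Sirt6-/- arrays. All 3 Sirt6-/- RelA+/- values were below the pool and both Sirt6-/- values above it, but limma gave an adjusted p of 0.661 for the difference. Hdac6, a cytoplasmic deacetylase of alpha-tubulin, read 1.28, -0.0060 and -0.12 on the Sirt6-/- RelA+/- arrays, against 0.57 and 0.93 on the Sirt6-/- arrays. Hdac7, a class IIa enzyme of thymocytes and endothelium, read 0.70, -0.015 and -0.15 on the Sirt6-/- RelA+/- arrays, against 0.49 and 0.70 on the Sirt6-/- arrays. Hdac10, which in humans deacetylates polyamines, read 1.26, 0.054 and -0.13 on the Sirt6-/- RelA+/- arrays, against -0.12 and 0.47 on the Sirt6-/- arrays. For these 3 the highest value was on Sirt6-/- RelA+/- array 1, and the groups overlapped. Hdac5, another class IIa enzyme, had 2 probes. Probe 17827 read -1.22, 0.47 and -0.90 on the Sirt6-/- RelA+/- arrays, against 0.38 and -0.24 on the Sirt6-/- arrays. Probe 31873 read -0.070, 0.39 and 0.34 on the Sirt6-/- RelA+/- arrays, against 0.54 and 0.56 on the Sirt6-/- arrays. All 6 tested were above the pool in Sirt6-/- spleens, as were 4355 of 9000 genes. In Sirt6-/- RelA+/- spleens 4 of 6 were above it, as were 4389 of 9000 genes. In any comparison 0 were called. At an unadjusted p under 0.05 in limma there were 1 for Sirt6-/- spleens, 0 for Sirt6-/- RelA+/- and 1 over both genotypes, against 20.4%, 13.1% and 26.9% of all genes.

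**Figure D4:**
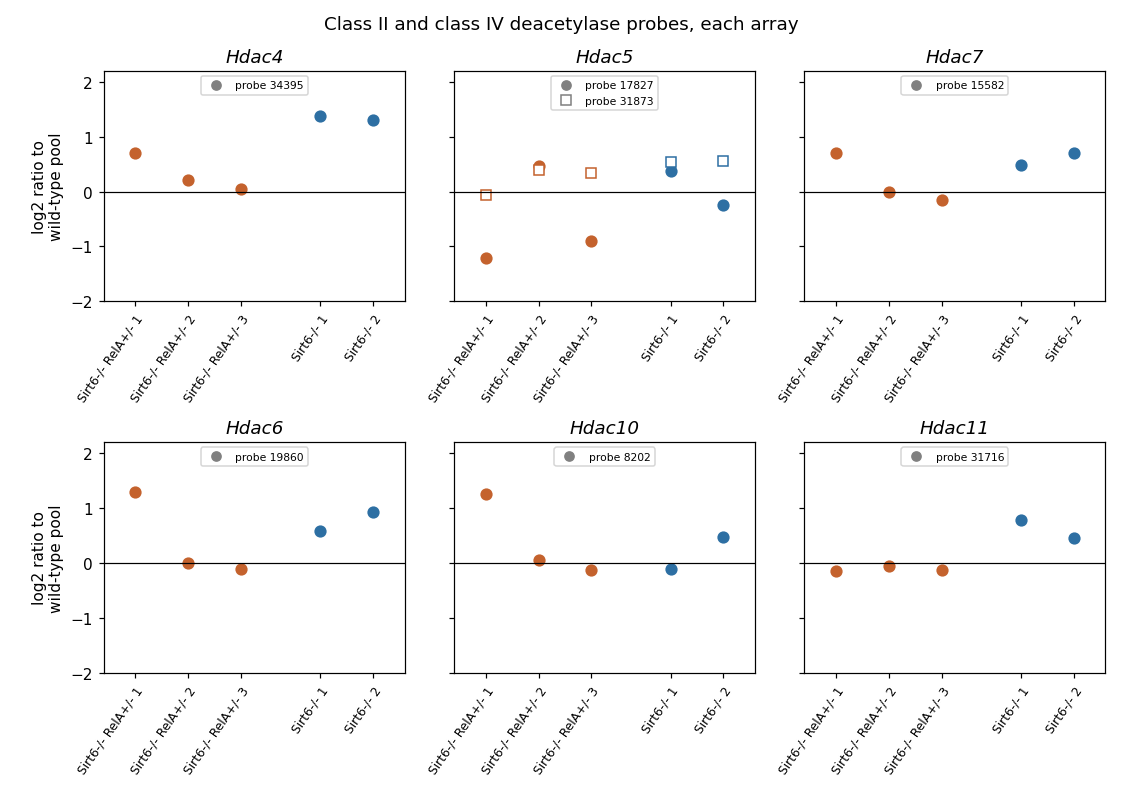
Log2 ratio to the wild-type pool (vertical axis) of the class II and class IV deacetylase probes on each array (horizontal axis), with Sirt6-/- RelA+/- arrays in orange and Sirt6-/- arrays in blue. The groups do not overlap for Hdac4 and Hdac11, as for 28.2% of all genes tested.

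The corepressor complexes that carry class I deacetylases gave 2 called genes, both over the 2 genotypes together, where 0.544% of all genes were called higher and 0.467% lower. Of all 9000 genes tested, 4328 averaged above the pool there. Of 14 tested Sin3 genes, 10 averaged above the pool and 1 was called, higher. It was Morf4l1, a chromodomain subunit, which read 1.67, 1.19 and 1.16 on the Sirt6-/- RelA+/- arrays, against 1.33 and 1.47 on the Sirt6-/- arrays (limma 1.37 ± 0.21 SE, adjusted p = 0.0495). Of 11 tested NuRD genes, 5 averaged above the pool and 1 was called, lower. Rbbp7, a histone-binding subunit shared by Sin3 and NuRD, averaged -0.91, Arid4b of Sin3 0.60 and Mta2 of NuRD 0.65, none of them called. The called NuRD gene was Mbd2, which binds methylated DNA, and it read -1.44, -0.48 and 0.089 on the Sirt6-/- RelA+/- arrays, against -3.28 and -2.97 on the Sirt6-/- arrays (limma -1.87 ± 0.28 SE, adjusted p = 0.0495). These are averages of 3 probes that disagreed. One averaged 0.35, another -2.01, and the last, blank on Sirt6-/- RelA+/- array 1, read -0.87 and -0.33 on the other Sirt6-/- RelA+/- arrays, against -7.41 and -6.61 on the Sirt6-/- arrays, so the Mbd2 value of array 1 rests on 2 probes. The arrays ranked by Mbd2 in the same order as by the erythroid median, and the part of those cells in its value was not tested. Of 7 tested CoREST genes, 6 averaged above the pool, among them Kdm1a, the lysine demethylase, at 0.47 ± 0.20 (limma SE, adjusted p = 0.195), and 0 were called (0 at an unadjusted p under 0.05). Zmym2 and Phf21a of the same complex averaged 0.40 and 0.43. Ncor1, a scaffold that holds Hdac3, had no complete values, and of the 3 NCoR complex genes tested, Tbl1xr1 at 0.63, Gps2 at -0.47 and Tbl1x at 0.37, 0 were called (1 at an unadjusted p under 0.05).

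Genes that make, use or answer to the sirtuins' cosubstrate and acetyl marks were mostly not called either, over both genotypes together. Of 11 tested NAD synthesis genes, 6 averaged below the pool and 1 was called. It was Kmo, kynurenine monooxygenase on the route from tryptophan to NAD, which read -1.53, -1.08 and -1.61 on the Sirt6-/- RelA+/- arrays, against -1.72 and -2.17 on the Sirt6-/- arrays (limma -1.68 ± 0.22 SE, adjusted p = 0.0399). Afmid and Nmnat3, of the same list, averaged -0.97 and -1.33 and were not called. Of 15 tested nuclear sirtuin partners and substrates, 10 averaged above the pool and 1 was called, lower. It was Xrcc6, which encodes the DNA end-binding protein Ku70, a known Sirt1 substrate, and it read -1.95, -0.87 and -1.10 on the Sirt6-/- RelA+/- arrays, against -1.63 and -2.07 on the Sirt6-/- arrays (limma -1.58 ± 0.25 SE, adjusted p = 0.0495). Srebf1, a lipid synthesis regulator, averaged 1.08 ± 0.22 (limma SE, adjusted p = 0.0738), and Hif1a, the hypoxia factor, 0.72. None of the 13 tested mitochondrial sirtuin substrates, 20 genes of acetyltransferases or their complexes, 8 acetyl-lysine readers or 6 other NAD consumers was called. In limma, 3, 5, 5 and 1 of them had an unadjusted p under 0.05, against 26.9% of all genes. Parp1, the DNA break sensor that consumes NAD, averaged -0.80 ± 0.27 (limma SE, adjusted p = 0.134), and Parp12 and Parp3 averaged 0.51 and 0.50. In the acetyltransferase list Jade2 averaged -1.59 ± 0.37 (limma SE, adjusted p = 0.0816), Meaf6 -0.91 and Ing3 -1.49. Among the acetyl-lysine readers Atad2 averaged -1.73 ± 0.42 (limma SE, adjusted p = 0.0860), Brd2 0.96 and Baz1b -0.66. Among the mitochondrial substrates the glutamate dehydrogenase gene Glud1 averaged 0.68, the malonyl-CoA decarboxylase gene Mlycd 0.78 and the fatty acid oxidation gene Acadl -0.96.

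Each of these 4 calls lost its adjusted p below 0.05 when either Sirt6-/- array, or Sirt6-/- RelA+/- array 1 or 2, was left out, with adjusted p between 0.0653 and 0.435 in limma. Without Sirt6-/- RelA+/- array 3 they stayed between 0.0317 and 0.0395. None of the 4 was called when each probe was tested on its own or when arrays were scaled to the same spread (adjusted p 0.0654 to 0.0716 with that scaling, limma). A robust fit put Morf4l1, Mbd2 and Xrcc6 at adjusted p of 0.0532 to 0.0533, keeping blanks on some arrays put the same 3 at 0.0522 to 0.0524, and equal weight for the 5 arrays put Mbd2 at 0.0568 and Xrcc6 at 0.0539 (limma). The reported limma fit of 5 arrays also compared Sirt6-/- RelA+/- with the pool, Sirt6-/- with the pool, and the genotypes. In these comparisons it called 0 genes of any of these pathway lists. Per list, 0 to 3, 0 to 5 and 0 to 1 genes had an unadjusted p under 0.05, against 13.1%, 20.4% and 8.82% of all genes.

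The genes whose 5 values lay nearest those of a member, by root mean square difference over the arrays, came from the whole table. For Hdac3 the nearest were Morc2a (0.0329), Slc25a22 (0.0652) and Epm2aip1 (0.0960). For Sirt5 they were Fnbp1l (0.0964), Eif4e3 (0.129) and Aph1b (0.137). For Sirt1 they were Pnn (0.118), Prkab1 (0.131) and Abce1 (0.153), and for Hdac2 Pnpt1 (0.0845), Nup188 (0.131) and Ptbp3 (0.132). For Sirt2 they were Rab22a (0.0737), Pecr (0.0867) and Zfp330 (0.0872), and for Sirt3 Tmem128 (0.0619), Dhodh (0.0620) and Gtf2b (0.0752). The comparison rests on 5 arrays that share the pool.

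Rela itself, present in a single functional copy in Sirt6-/- RelA+/- mice, read 1.15, -0.084 and -0.20 on the Sirt6-/- RelA+/- arrays, against 0.48 and 1.08 on the Sirt6-/- arrays. The groups overlapped, and limma gave a difference of -0.49 ± 0.56 (SE; adjusted p = 0.858). Its probe, too, is not placed relative to the altered part of the gene.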

How the data were processed

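The deposited values were read as log2 ratios of Cy5 (mutant spleen) over Cy3 (wild-type pool) per spot, from their symmetric range of -9.119 to 8.27. The sources used here do not state the authors' log base, direction, normalization or rule for blanks. Per the labels, 15 µg of aRNA was labelled per channel, and the design text calls the samples biological replicates. The p-values rest on the spread of these 5 samples around their group means. That spread was pooled over both genotypes and drawn by eBayes towards the spread of all genes. A p-value for one genotype therefore does not rest on the spread of its own arrays alone.

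Each array was centred on its median, and probes of one symbol in the platform's probe table were averaged (22204 of 38784 spots had 1 symbol, 16580 none). Genes with 5 values, 9000 in all, were fitted by group means in limma 3.58.1 (R 4.3.3) with eBayes, residual df 3 and prior df 3.63. Benjamini-Hochberg adjustment was over all of them at 0.05. Intervals are 95%. The 4 comparisons were each genotype and the mean of both against 0, and Sirt6-/- RelA+/- minus Sirt6-/-; the first 3 share the pool. Groups came from the sample names. The other scripts were run in Python 3.11.15. Precision is limited by 5 arrays.

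Members and lists were chosen with earlier results of these data known. Named are all members and other deacetylases, Rela, and of each other pathway list the called genes and the 3 with the largest absolute moderated t over both genotypes; for each tested member, the 3 genes nearest by root mean square difference. The alternatives were other centring and scaling, quantile normalization, blank and low-spread filters, single probes, a robust fit, own-group fits, equal weight for the 5 arrays, a replicate block and leaving out each array.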

Additional observations from a re-analysis of the deposited data

Results flagged for a closer look

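Hdac11, the class IV deacetylase, had all of its values on one side of the pool in each genotype, and the sides were opposite. It was -0.15, -0.054 and -0.14 on the Sirt6-/- RelA+/- arrays, against 0.77 and 0.46 on the Sirt6-/- arrays. Groups that do not overlap, on whichever side of the pool, were found for 28.2% of all genes tested. The Hdac11 difference was -0.73 on the log2 scale, and limma gave it an adjusted p of 0.661. Against the pool, limma gave -0.11 ± 0.25 for Sirt6-/- RelA+/- (SE; adjusted p = 0.843) and 0.62 ± 0.31 for Sirt6-/- spleens (SE; adjusted p = 0.311), so neither passed the test.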

How the results depend on the processing

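Of 326 alternatives for the members, 302 kept direction and side of the threshold, 23 turned direction and 1 passed it. Many could not turn direction: leaving out an array of the other genotype, for example, leaves a genotype's mean as it was. The count therefore does not measure how firm the directions are. Fitting the Sirt6-/- arrays alone called 1 member, Sirt5 (limma adjusted p = 0.0305), and 3321 genes against 0 (1835 at an unadjusted p under 0.05) in the reported fit; that fit has 2 arrays. Leaving out the least variable 25% of genes called 641 genes for Sirt6-/- against the pool, 301 for Sirt6-/- RelA+/-, 135 between genotypes and 933 over both genotypes. That filter left no value for Sirt2, Sirt3, Hdac3, Morf4l1, Kmo or Hdac11. For Sirt6-/- RelA+/- the count of 29 became 5 with values as deposited, 2 with scaled arrays, 0 with at least 2 arrays of each group required, 0 with each probe alone, 0 with its own arrays alone, 0 with a robust fit and 0 to 3 with an array left out. Over both genotypes the count of 91 became 138 after quantile normalization, 2 with scaled arrays, 50 with at least 2 arrays of each group required, 0 with each probe alone, 37 with a robust fit and 0 to 768 with an array left out. The causes were not tested.

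Same-numbered arrays deviated oppositely (r = -0.41 and -0.40), and only 2 numbers are shared. With 2 Sirt6-/- arrays, their deviations from the group mean are mirror images of each other. This check therefore cannot show whether same-numbered samples share more than a number. With the replicate block, limma called 101 genes for Sirt6-/-, 215 for Sirt6-/- RelA+/-, 42 between genotypes and 417 over both. The block put Sirt1 at 0.076 and Hdac2 at 0.18 in Sirt6-/- spleens, Sirt1 at 0.020 over both genotypes, and the genotype differences of Sirt1 at -0.11 and Sirt3 at -0.12, all turned in sign; it called 0 members, and its limma unadjusted p for Hdac3 over both genotypes was 0.0985.

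Sirt3 probe 21272 alone turned the sign, at 0.33 in Sirt6-/- RelA+/-, 0.51 in Sirt6-/-, 0.42 over both and -0.18 between genotypes. The Hdac3 genotype difference was -0.011 with values as deposited. One Mbd2 probe was at 0.35. Leaving out arrays moved Sirt6-/- RelA+/- means to between -0.50 and 0.23 for Sirt1, -0.37 and 0.0070 for Sirt2, -0.31 and 0.12 for Sirt3, and -0.72 and 0.058 for Sirt5. In Sirt6-/- it gave -0.097 to 0.12 for Sirt2 and -0.28 to 0.057 for Hdac2, and over both genotypes -0.18 to 0.0080 for Sirt2. Genotype differences ran from -0.11 to 0.62 for Sirt1, -0.12 to 0.31 for Sirt3 and -0.28 to 0.29 for Hdac3. Hdac3 over both genotypes stayed between 0.54 and 0.82 under every alternative run (limma adjusted p 0.119 to 0.727). Alternatives for Morf4l1, Mbd2, Kmo, Xrcc6, Hdac4 and Hdac11 were chosen after seeing the data. Signal over background was not in the values used here, so no detection limit is given.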

Other observations

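Hdac9, a class IIa deacetylase, had 2 probes. Probe 15393 was blank on all 5 arrays. Probe 16154 read -2.42 on Sirt6-/- RelA+/- array 2 and -1.26 on Sirt6-/- array 1, and was blank on the other 3 arrays.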
